A study of Homo sapiens with 3 samples.

Results

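Matrix metalloproteinases (MMPs) and their tissue inhibitors (TIMPs) were examined in stratified cultures of the SV40-immortalized human corneal epithelial line (iHCE). The genes followed were MMP1, MMP2, MMP3, MMP7, MMP9, MMP10, MMP14, TIMP1, TIMP2 and TIMP3. They were taken by name, and every probe set annotated to 1 of them alone was kept. All 10 genes were measured, by 16 of the 19071 probe sets that name a single gene, and 11963 genes were measured in all. No probe set shared between several genes named any of the 10. The study has 1 group of 3 cultures, each an independent batch read on its own Affymetrix GeneChip array. All 3 cultures carry the viral large T antigen and were grown on collagen-coated filters at an air-liquid interface, in medium with serum, insulin, cholera toxin, EGF, DMSO and ascorbic acid. Their trans-epithelial resistances were 489, 439 and 468 Ω x cm2 in cultures 1, 2 and 3. The model is a single immortalized line, and no untreated or tissue array was analysed here, so no ratio between groups is given.

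MMPs are zinc-dependent proteases that cut the proteins of the extracellular matrix and of basement membranes. Most are secreted as inactive proenzymes, and a few, such as MMP14, are anchored in the cell membrane. TIMPs are small secreted proteins that bind the active site of MMPs and block it. In the cornea this balance is known from wound healing, from renewal of the epithelial basement membrane and from stromal ulceration. An array reads RNA, so neither activation of the proenzymes nor inhibitor protein was measured here.

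Of the 10 genes only the inhibitors TIMP1 and TIMP2 were above background in all 3 cultures. No MMP was above background on every array, and 6 of the 7 were above it on none. MMP14 exceeded the threshold on 2 of the 3 arrays. The third inhibitor, TIMP3, was above it on no array. Above background means a log2 value over the 95th percentile of 59 genes of other tissues on the same array, among them liver, skeletal muscle and brain. These thresholds were 7.12, 7.02 and 6.98 in cultures 1, 2 and 3. Of all genes measured 45.5% were above background on the 3 arrays, against 2 of the 10 here. Among probe sets the share was 36.9%, against 2 of the 16. The share of all genes or probe sets above background on no array was not counted. The median level of the 10 genes was 6.01, and that of all genes 6.98. Each gene is read from its probe set with the highest mean. Probe sets differ in affinity, so a gene was called by the threshold and not by another gene's level. Median levels of gene sets and the brightest genes of a list are given as description only.

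**Figure D1:**
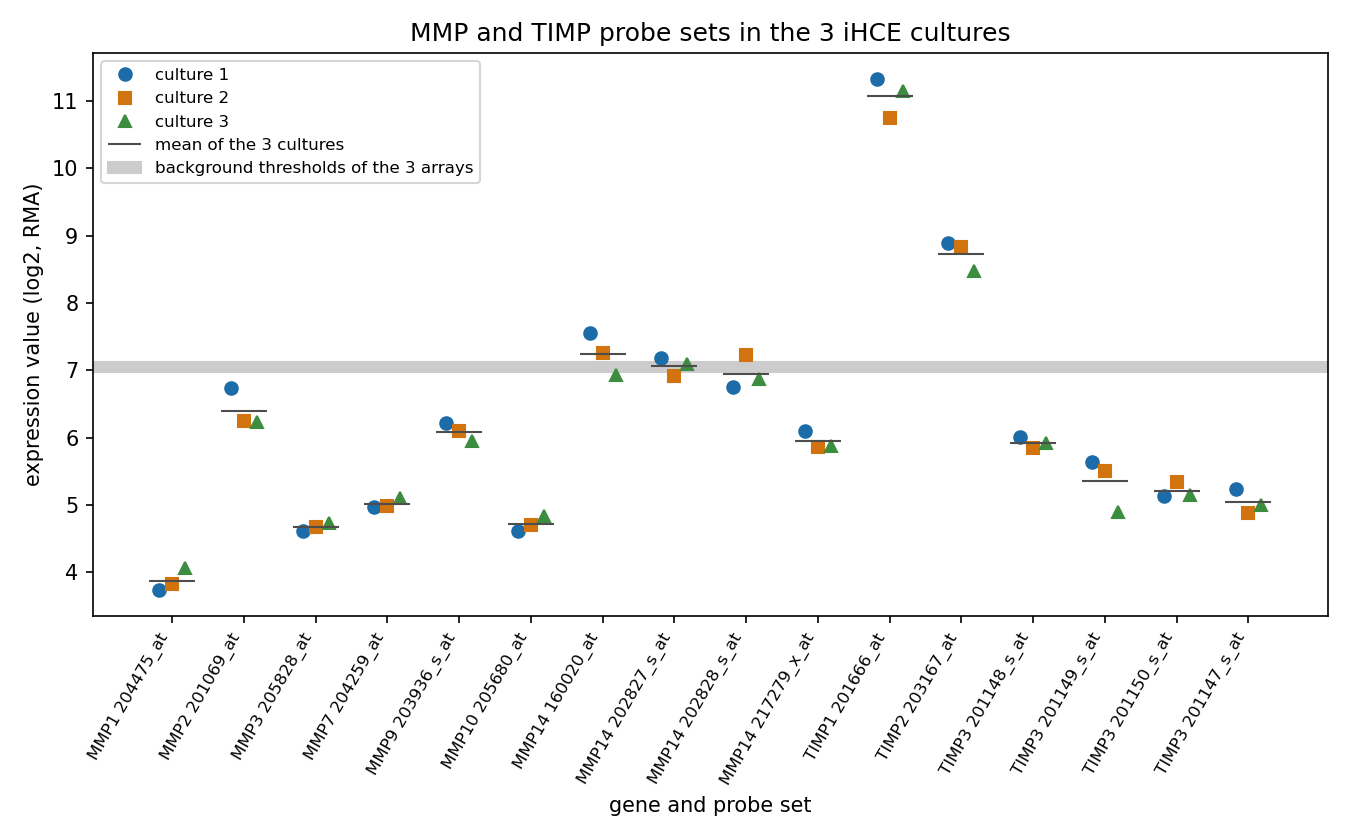
Expression values (log2, RMA) of the 16 probe sets of the 10 MMP and TIMP genes, 1 symbol for each of the 3 iHCE cultures, a line at their mean, and a grey band over the 3 background thresholds (6.98 to 7.12). The single probe sets of TIMP1 and TIMP2 lie above the band in every culture, 3 of the 4 MMP14 probe sets have values on both sides of it, and the other genes lie below it.

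TIMP1, a broad secreted inhibitor that also binds the proenzyme of MMP9, had log2 values of 11.33, 10.74 and 11.15 in cultures 1, 2 and 3. Culture 2 was the lowest and culture 1 the highest, and each value was far above its threshold. The mean was 11.07 ± 0.30 (SD, n = 3), which is 4.04 log2 units over the mean threshold. By limma's one-sided test of the mean over the threshold the adjusted p was 3.41e-09. The test takes the threshold as fixed, so its p reflects spread between arrays and not the choice of the threshold. The range over the cultures was 0.59, against a median of 0.28 among genes above background. The SD of TIMP1 lay at percentile 89.1 among those genes, so TIMP1 varied more between the cultures than most of them.

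TIMP2 inhibits MMPs and also links the proenzyme of MMP2 to MMP14 at the cell surface, where it is activated. Its values were 8.90, 8.83 and 8.47 in cultures 1, 2 and 3, lowest in culture 3. The mean was 8.73 ± 0.23 (SD, n = 3), 1.69 log2 units over the mean threshold (limma, one-sided, adjusted p = 2.84e-07). TIMP1 and TIMP2 were above background under all 10 alternative settings. Their distances from the threshold ran from 3.53 to 4.48 and from 1.18 to 2.14 log2 units.

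TIMP3 is the inhibitor that stays bound to the matrix, and it also inhibits ADAM proteases. Its 4 probe sets had means between 5.04 and 5.93, and none exceeded the threshold on any array. The brightest of them read 6.01, 5.85 and 5.93 in cultures 1, 2 and 3 (5.93 ± 0.08, SD, n = 3). Another, 201149_s_at, read 5.65, 5.50 and 4.90, a range of 0.74, and was lowest in culture 3. The 4 probe sets did not share an order of the cultures. Culture 1 was the highest for 3 of them and culture 2 for 201150_s_at.

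MMP14 encodes a membrane-anchored collagenase that activates the proenzyme of MMP2. Its brightest probe set, 160020_at, had log2 values of 7.55, 7.25 and 6.93 in cultures 1, 2 and 3. The first 2 cultures were above their thresholds, by 0.42 and 0.24 log2 units, and culture 3 was at -0.05 from its threshold. The mean was 7.24 ± 0.31 (SD, n = 3), 0.20 over the mean threshold (limma, one-sided, adjusted p = 0.11). MMP14 was thus read at the border of background.

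The other probe sets of MMP14 had lower means, and different cultures passed in each. Probe set 202827_s_at read 7.19, 6.91 and 7.09 and passed in cultures 1 and 3. Probe set 202828_s_at read 6.75, 7.22 and 6.87 and passed in culture 2 alone. Probe set 217279_x_at, a type that can bind several transcripts, read 6.10, 5.86 and 5.88 and passed nowhere. On each array at least 1 of the 4 passed, and no probe set passed on all 3. The means of the 4 spanned 1.29 log2 units. MMP14 passed on every array used under 4 of the 10 alternative settings, namely the 90th percentile of the panel, the mean over probe sets, no _x_at or _s_at probe sets, and leaving out culture 3.

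**Figure D2:**
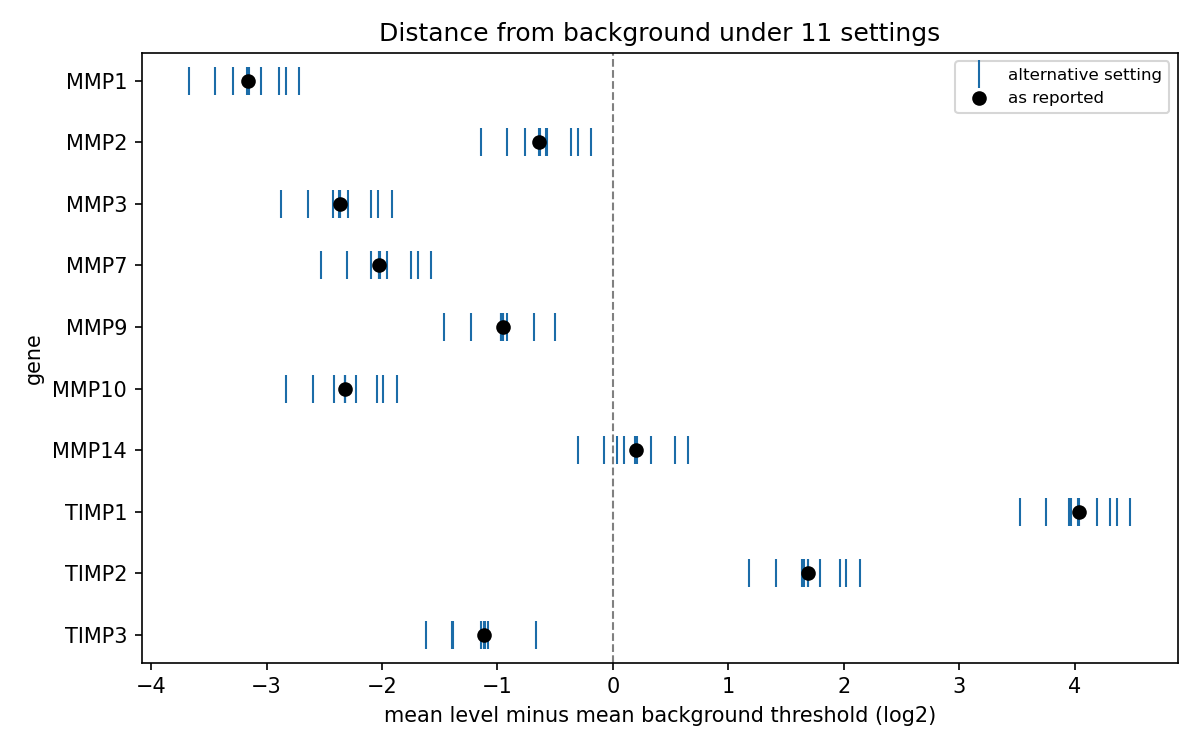
Mean level minus mean background threshold (log2) of each of the 10 genes, as reported (dots) and under the alternative settings (ticks, 10 for each gene and 9 for MMP9 and TIMP3). MMP14, with a reported value of 0.20, is the only gene whose ticks fall on both sides of 0.

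The gelatinases, which digest denatured collagen and the type IV collagen of basement membranes, were below the threshold. MMP2 had values of 6.74, 6.25 and 6.23 in cultures 1, 2 and 3, with culture 1 apart from the others. Its mean was 6.40 ± 0.29 (SD, n = 3), and the difference from the mean threshold was -0.64 log2 units. MMP9, the gelatinase best known from corneal epithelial wounds, read 6.21, 6.10 and 5.95 (6.09 ± 0.13, SD, n = 3), a difference of -0.95. The MMP9 probe set is of the _s_at type, and the array holds no other for this gene among those used. MMP2 and MMP9 stayed below the threshold under all alternatives that measured them, with differences from -1.15 to -0.19 for MMP2 and from -1.46 to -0.50 for MMP9. RMA compresses differences at values this low, and a small amount of transcript was not detectable here.

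The interstitial collagenase MMP1, the stromelysins MMP3 and MMP10 and matrilysin (MMP7) were far below the threshold. MMP1, which cleaves fibrillar collagen, read 3.74, 3.82 and 4.07 in cultures 1, 2 and 3 (3.88 ± 0.17, SD, n = 3). MMP3, which cleaves proteoglycans and laminin and can activate other proenzymes, read 4.62, 4.68 and 4.73 (4.68 ± 0.06). MMP10, its close relative, read 4.62, 4.70 and 4.84 (4.72 ± 0.11). Their differences from the mean threshold were -3.16 for MMP1, -2.36 for MMP3 and -2.32 for MMP10, and no culture came near it.

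MMP7, a short MMP without the hemopexin domain that is typical of epithelia of glands, read 4.97, 4.98 and 5.10 (5.02 ± 0.07, SD, n = 3), a difference of -2.02. In all 4 genes culture 1 was the lowest and culture 3 the highest. The same order was found at 19.2% of all probe sets, and the ranges here were 0.11 to 0.33 log2 units, within background.

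These 4 genes lie in 1 cluster of 9 neighbouring MMP genes on chromosome 11, in the order MMP7, MMP20, MMP27, MMP8, MMP10, MMP1, MMP3, MMP12 and MMP13 in the RefSeq annotation. All 9 were measured, and none was above the threshold on any array, while 45.5% of all genes were above it on all 3. Their means lay between 3.88 for MMP1 and 5.53 for MMP13, and the smallest difference from the mean threshold was -1.51, for MMP13. The order of the cultures was not common to the cluster, since MMP8 read 5.26, 4.97 and 4.68 and was lowest in culture 3.

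Promoter sequences are shown for 2 genes of this cluster that were at background and for 2 inhibitors, 1 above background and 1 not. The RefSeq table used here (GRCh38.p14) held promoters for 5 of the 10 genes, MMP7, MMP10, MMP14, TIMP1 and TIMP3. The 250 bases before the annotated start are given from 5′ to 3′ in the direction of transcription. Capitals mark matches, on either strand, to the AP-1 motif TGANTCA, the TATA box TATAAA and the GC box GGGCGG. None of the matches overlapped another.
MMP7 (chr11:102530748-102530997, minus strand): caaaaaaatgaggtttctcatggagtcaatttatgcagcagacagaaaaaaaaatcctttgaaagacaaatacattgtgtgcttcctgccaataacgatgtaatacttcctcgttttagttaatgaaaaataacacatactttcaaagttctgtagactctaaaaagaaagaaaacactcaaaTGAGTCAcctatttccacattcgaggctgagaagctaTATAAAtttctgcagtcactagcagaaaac
MMP10 (chr11:102780629-102780878, minus strand): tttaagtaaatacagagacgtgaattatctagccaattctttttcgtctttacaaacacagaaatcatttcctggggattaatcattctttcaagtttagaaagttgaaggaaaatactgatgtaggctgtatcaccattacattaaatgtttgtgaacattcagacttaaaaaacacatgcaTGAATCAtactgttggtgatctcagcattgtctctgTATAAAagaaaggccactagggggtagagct
TIMP1 (chrX:47582186-47582435, plus strand): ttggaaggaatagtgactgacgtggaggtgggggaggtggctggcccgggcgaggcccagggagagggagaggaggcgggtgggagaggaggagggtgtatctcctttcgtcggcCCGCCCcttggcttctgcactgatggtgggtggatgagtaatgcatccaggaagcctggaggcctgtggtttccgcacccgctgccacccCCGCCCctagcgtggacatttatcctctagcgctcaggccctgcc
TIMP3 (chr22:32801455-32801704, plus strand): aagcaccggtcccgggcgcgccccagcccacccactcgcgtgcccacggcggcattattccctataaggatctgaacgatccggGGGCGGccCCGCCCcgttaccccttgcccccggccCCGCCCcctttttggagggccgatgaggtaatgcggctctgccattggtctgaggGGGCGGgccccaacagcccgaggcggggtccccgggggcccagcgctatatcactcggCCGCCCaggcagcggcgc

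The promoters of MMP7 and MMP10 each held 1 AP-1 match, beginning 67 bases before the start in both, and 1 TATA box, beginning 30 and 31 bases before it. Over all 35116 promoters of the same length, 6.57% held an AP-1 match, 10.7% a TATA box and 1.07% both. TIMP1 held 2 GC boxes and TIMP3 held 5, with no AP-1 match and no TATA box, and MMP14 held 1 GC box and neither of the others. A GC box was found in 42.6% of all promoters. Bases G and C made up 33.6% and 34.4% of the MMP7 and MMP10 windows, 56.8% for MMP14, 64.8% for TIMP1 and 72.4% for TIMP3, against a median of 58.0% over all promoters. A match is a description of the letters and not a measured binding site. Sites that depart from the letters of these motifs were not searched. The windows with a GC share over that median were those of TIMP1, above background, and TIMP3, below it.

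Culture 1 was the highest most often at these probe sets. Of the 16 probe sets 10 were highest in culture 1, 2 in culture 2 and 4 in culture 3. Among all probe sets 38.4% were highest in culture 1. Probe sets of the same gene were counted separately, 4 each for MMP14 and TIMP3. Of the 16 probe sets 11 were above the threshold on no array, so their order of the cultures was within background. A range of 0.5 log2 units or more over the cultures was found for 3 of the 10 genes, MMP14, TIMP1 and MMP2, and for 15.9% of all genes. The range of MMP2 was 0.51, and MMP2 was below the threshold on every array. The median range was 0.29 for the 10 genes and 0.27 for all genes. Without culture 1 none of the 10 genes had such a range, and 2.88% of all genes did. Without culture 2 it was 2 of the 10 genes and 10.1% of all genes, and without culture 3 it was 1 and 9.61%. A range over 2 arrays is as a rule smaller than one over 3, so these shares fall in any case. Each culture is 1 array, so a difference between cultures has no test here.

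**Figure D3:**
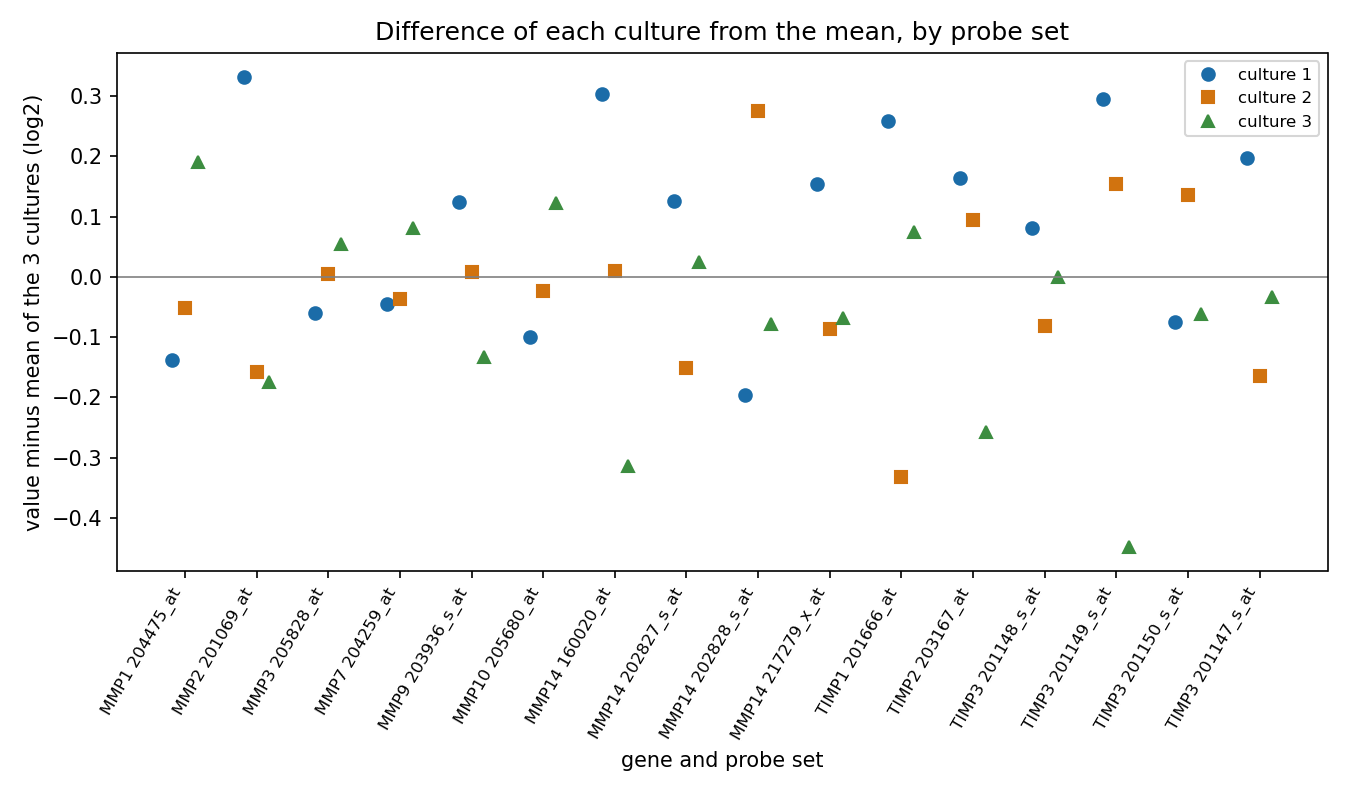
Difference of each iHCE culture from the mean of the 3 (log2), for the 16 MMP and TIMP probe sets. Culture 1 (circles) is the highest at 10 of the 16 probe sets, and culture 3 (triangles) at the 4 probe sets of MMP1, MMP3, MMP7 and MMP10.

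Over all probe sets culture 1 was somewhat apart from cultures 2 and 3. Pearson's r across all probe sets was 0.994 between cultures 2 and 3, and 0.988 and 0.987 between culture 1 and each of them, which describes features that are not independent. The median of the panel of other tissues was 5.43, 5.41 and 5.20 in cultures 1, 2 and 3, and that of all probe sets was 6.37, 6.38 and 6.37. The part of these array levels in the order of the cultures was not tested. All 6 genes listed as markers of simple epithelia (KRT7, KRT8, KRT18, KRT19, EPCAM and CDH1) were above background. Their expression in other epithelia was not examined. None of the 6 corneal and basal markers (KRT3, KRT5, KRT12, KRT14, PAX6 and ALDH3A1) was. PAX6 came close in culture 1, at 7.11 against a threshold of 7.12. These levels describe marker expression in the cultures, and the origin of the line was not tested. None of the 8 markers of stromal fibroblasts, which also make MMPs and TIMPs, was above background on all arrays. The keratocan gene KERA and the lumican gene LUM read 3.79 ± 0.11 and 3.64 ± 0.03 (SD, n = 3), and THY1 passed on 1 array. None of 7 leukocyte markers and 1 of 5 endothelial markers, TEK (7.24 ± 0.26), was above background.

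Other MMP genes were also mostly at background. Of 15 further genes of the family measured, TIMP4 included, 1 was above background on all arrays, a share of 6.67% against 45.5% of all genes. The median level of the 15 was 5.53. The gene above background was MMP15, a membrane-anchored MMP related to MMP14, with 7.32, 7.48 and 7.38 in cultures 1, 2 and 3. It was 0.35 log2 units over the mean threshold, and it did not pass with the highest panel value or the median plus 3 scaled MADs as the threshold. MMP19 passed on 2 arrays (7.30, 6.91 and 6.99). The stromelysin-related MMP11, macrophage elastase (MMP12) and collagenase MMP13 passed on none, with means of 6.31, 4.26 and 5.53.

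The related ADAM proteases included genes well above background. Of 14 ADAM and ADAMTS genes 4 were above it, all ADAMs, a share of 28.6% against 45.5% of all genes. The other 10 passed on no array. The list had a median level of 6.07. ADAM9 read 9.73, 9.57 and 9.75 in cultures 1, 2 and 3 (9.68 ± 0.10, SD, n = 3). ADAM10 and ADAM17, sheddases that release membrane-bound ligands and receptors, had means of 9.52 ± 0.05 and 8.63 ± 0.18. ADAM8 had 8.29 ± 0.04. ADAM12, ADAM15 and ADAM19 read 6.12, 6.61 and 6.02. With the mean over probe sets ADAM10 and ADAM17 no longer passed.

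**Figure D4:**
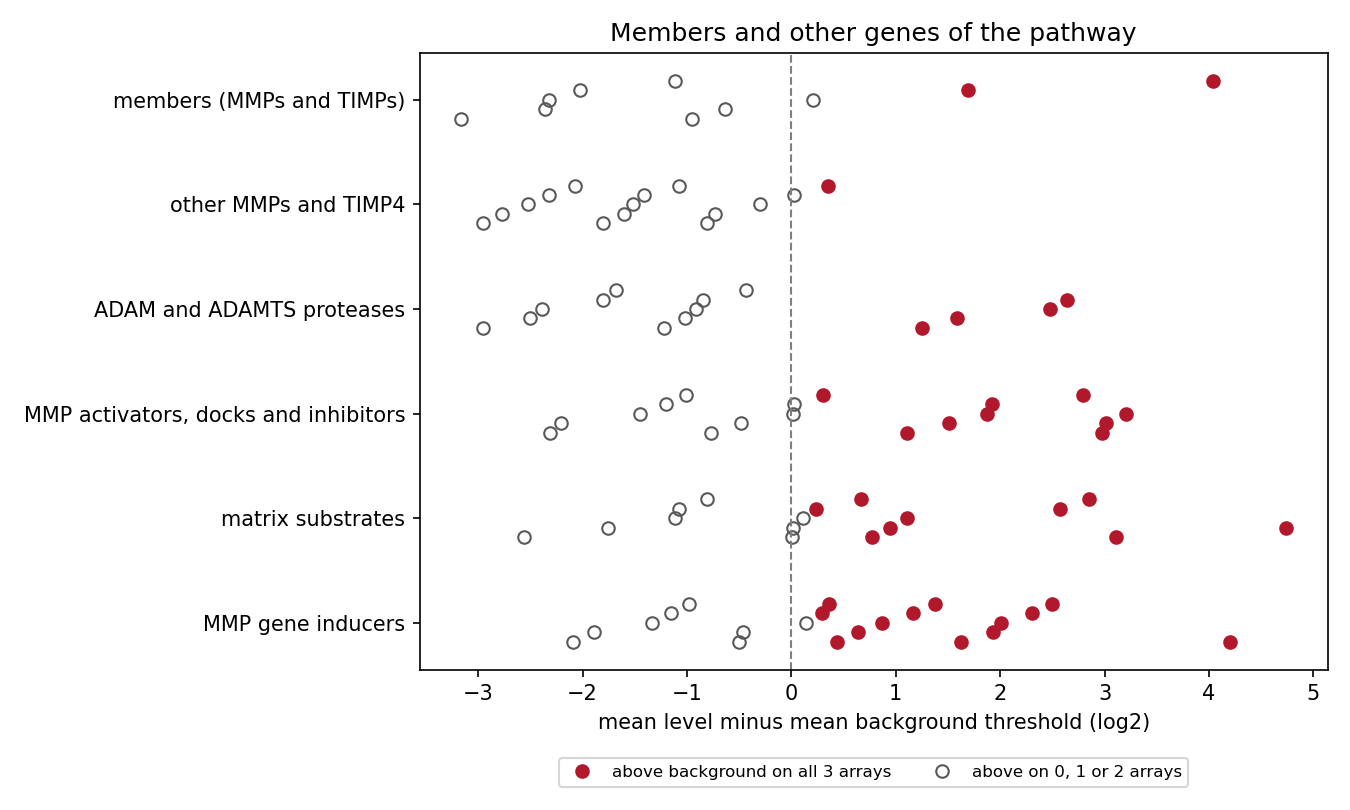
Mean level minus mean background threshold (log2) of the 10 MMP and TIMP genes and of the genes of 5 further lists, 1 point per gene, filled where the gene was above background on all 3 arrays. The 10 genes have 2 filled points (TIMP1 at 4.04 and TIMP2 at 1.69), other MMPs 1, ADAM and ADAMTS genes 4, and the other lists 9, 9 and 13.

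Among genes that activate, dock or inhibit MMPs, 9 of 18 were above background (median level 7.20), a share of 50.0% against 45.5% of all genes. The urokinase gene PLAU, whose product generates plasmin and through it activates MMP proenzymes, read 10.41, 10.02 and 10.30 in cultures 1, 2 and 3 (10.24 ± 0.20, SD, n = 3). PLG, the gene of the plasmin precursor, passed on no array (4.83 ± 0.24). LCN2, whose product forms a complex with MMP9, read 10.63, 9.80 and 9.72, with culture 1 apart by over 0.5 log2 units. TFPI2, a serine protease inhibitor of the matrix, read 9.57, 10.00 and 10.48, the opposite order. CD44, a hyaluronan receptor that docks MMP9 at the cell surface, had 9.83 ± 0.18. The protease inhibitor gene A2M and the proprotein convertase genes PCSK5 and PCSK6 passed on no array, with means of 4.73, 6.03 and 5.84. The other convertase genes of the list, FURIN (8.15 ± 0.13) and PCSK7 (7.34 ± 0.03), were above background on all 3. TFPI2 did not pass without _x_at and _s_at probe sets.

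Of 17 matrix substrates 9 were above background (median level 7.27), a share of 52.9% against 45.5% of all genes. The fibronectin gene FN1 had 11.78 ± 0.17, SPARC 10.15 ± 0.16, and the laminin chain genes LAMB3 and LAMC1 had 9.89 ± 0.27 and 9.61 ± 0.09 (SD, n = 3). The fibrillar collagen genes COL1A2 and COL3A1 and the decorin gene DCN, products of stromal cells, passed on no array (5.96, 4.48 and 6.23). Other fibrillar collagen genes read higher, COL5A1 above background on all 3 arrays (8.15 ± 0.18) and COL1A1 on 1 (7.05 ± 0.30). FN1 was below the threshold without _x_at and _s_at probe sets, by a difference of -2.76.

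Of 21 genes listed for a part in inducing MMP transcription 13 were above background (median level 7.48), a share of 61.9% against 45.5% of all genes. Whether each of them induces or represses MMP genes in these cells was not tested. None of these shares was tested against that of all genes. The cytokine gene IL6 read 11.13, 11.08 and 11.53 in cultures 1, 2 and 3 (11.24 ± 0.25, SD, n = 3). The genes of AP-1, the factor family that binds the motif searched above, included FOS at 9.32, 10.42 and 8.86, JUND at 9.34 ± 0.29 and JUN at 9.05 ± 0.25. ETS1, FOSL2 and IL1A passed on no array, with means of 5.88, 6.58 and 5.71. JUN and JUND did not pass with the mean over probe sets, nor JUN without _x_at and _s_at probe sets.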

How the data were processed

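Total RNA of 3 iHCE cultures was read on 3 arrays. The authors computed the deposited log2 expression values by RMA (R 2.8.0 per the submitters' processing notes), which corrects background, normalizes between arrays and summarises perfect match probes per probe set. Low values are compressed by this. The study's methods describe RMA over these and tissue arrays together with a custom probe annotation, while the deposited rows carry Affymetrix probe set names, so whether this table comes from that joint run is not settled. The annotation's genome build was not given in the sources used here. Arrays have no read depth, and their number limits the precision. The replicates are culture batches, so the SD holds culture and technical variation.

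Of 22283 probe sets 19071 had 1 symbol, 1043 several, and 2169 were unlisted in the platform annotation. Symbols were updated through Entrez numbers in RefSeq GRCh38.p14, except 12 not found. A gene took its probe set with the highest mean. The threshold of an array was the 95th percentile over 59 measured genes, of 68 listed, that mark tissues other than the cornea; 1 of them passed on all arrays. The alternatives were 3 other thresholds, the mean over probe sets, no _x_at or _s_at probe sets, quantile normalization, each replicate left out, and limma 3.58.1 (R 4.3.3; one-sided, Benjamini-Hochberg over 11963 genes, adjusted p under 0.05). Steps were tested on simulated data, with genes set 1 log2 unit above or below the threshold. Calls of genes closer to it were not tested in this way. The limma contrast of the study's methods needs tissue arrays and was not run.

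The 10 genes, the panel and the lists were chosen with earlier results of these data known. All 10 genes were named, and from each of 5 pathway lists the 4 brightest above background and up to 3 in alphabetical order that passed on no array. MMP19, THY1, TEK, KERA, LUM, COL1A1, COL5A1, FURIN, PCSK7, PLG and the other genes of the chromosome 11 cluster were named after their values were seen. Listed genes with no probe set of their own are not reported here.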

Additional observations from a re-analysis of the deposited data

How the results depend on the processing

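The counts of the 10 genes above background (2 or 3) and of pathway genes (24 to 43, against 36) stayed within 1.5 times under the 10 alternatives. Without _x_at and _s_at probe sets 3463 genes were above background, of 8371 measured. The number of the 10 genes with a range of 0.5 or more was 0 to 2 when 1 replicate was left out (0 without replicate 1, 1 without replicate 3), over 2 arrays instead of 3. It was 2 with quantile normalization and with the mean over probe sets, against 3 as reported. Of 98 distances of the 10 genes from the threshold 92 kept direction and side, and the other 6 were those of MMP14. MMP14 lay at -0.075 with the highest panel value and at -0.31 with the median plus 3 scaled MADs. It passed on every array used under 4 alternatives, at 0.65 (90th percentile), 0.034 (mean over probe sets), 0.54 (no _x_at or _s_at) and 0.33 (no culture 3). The mean threshold was lower than reported in each of these except the last, which drops the array it failed on.

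Of 32 further named genes 24 kept direction and side throughout. The sign turned for ADAM15 with the 90th percentile (0.016), for MMP15 with the median plus 3 scaled MADs (-0.16), for ADAM10 (-0.29) and JUND (-0.37) with the mean over probe sets, and for FN1 (-2.76) and JUN (-1.54) without _x_at and _s_at probe sets. The cause was not tested. Arrays have no depth, and signal near background limits what can be said of genes close to the threshold, such as MMP14, MMP15 and ADAM15.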
